A study of Saccharomyces cerevisiae with 8 samples.

Results

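The PAU genes, called seripauperins, are a family of closely similar genes of budding yeast (Saccharomyces cerevisiae). They were examined here in RNA recovered with Upf1p. Members were the array probe sets for which every gene symbol in the platform's probe-to-gene table was a PAU gene. This gave 22 of 9275 tested probe sets, and 24 of 5923 genes named on the array. Of these, 10 named 1 PAU gene each and 12 named between 2 and 8 PAU genes, and 0 named a PAU gene together with a gene outside the family. Together they named all 24 PAU genes of the RefSeq gene table (assembly R64), of which 14 were named by shared probe sets alone. The suffix of the probe-set name was _f_at for 21 members and _s_at for 1, and both suffixes mark probes that can match more than 1 related transcript. A signal credited to 1 PAU gene may therefore contain RNA of other family members, and the 22 probe sets are not independent measurements.

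The study looked for transcripts that associate with Upf1p, a helicase without which nonsense-mediated mRNA decay does not run. It used 8 Affymetrix Yeast Genome S98 arrays. On 4 arrays the RNA came from selections on IgG Sepharose with TAP-tagged Upf1p, TAP being an affinity tag that binds IgG, and on 4 from mock selections, in pairs numbered 1 to 4. All cultures grew in rich medium (YEPD), bound material was released with TEV protease, and the RNA of both kinds of selection was brought to a like amount before its last purification. The strain, its genotype and what the mock extract carried in place of the tagged protein are not given in the labels. Total RNA of the extracts was not analysed here, so more PAU RNA in the tagged extract and more binding per PAU RNA molecule cannot be told apart.

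PAU proteins are small, serine-poor relatives of the serine- and alanine-rich Srp1/Tip1 cell wall mannoproteins, to which the TIR and DAN proteins belong. Most PAU genes lie near chromosome ends. Their transcription is known to be low in aerated cultures and to rise when oxygen is scarce and during wine fermentation, and haem-dependent repressors such as Rox1 and Mot3 and the activator Upc2 act on DAN and TIR genes under the same conditions. Nonsense-mediated decay removes mRNAs whose translation stops too early, and Upf1p is needed for it. The separate functions of the individual PAU proteins are mostly unknown.

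All 22 PAU probe sets were higher in the Upf1p-TAP selections. The 10 single-gene probe sets had log2 ratios between 1.13 and 2.54 with a median of 1.61, and the 12 shared ones had ratios between 0.78 and 2.86 with a median of 2.22. Over all 9275 probe sets, 17.7% were called higher and 13.5% lower, and the median ratio was 0.00. No PAU probe set was lower by limma (0 also at an unadjusted p under 0.05). Ratios are differences of log2(signal + 4.09), where 4.09 is the 10th percentile of the tested signals, and a call is a two-sided limma test with the pair as a block and an adjusted p (Benjamini-Hochberg over all 9275) below 0.05. Centring each array on its median lowered the median ratio of all probe sets to -0.14 and turned 1642 higher and 1249 lower calls into 1310 and 1759. The medians of the single-gene and shared PAU probe sets were then 1.46 and 2.08, and 10 and 11 of them were called higher.

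A ratio of at least 1 on the log2 scale, or 2-fold, was reached by 21 of the 22 (10.1% of all probe sets were called higher at that size), and 4-fold by 13 of the 22 (2.01% of all). Ranked by ratio among the 9275, the members lay between place 26 and place 1420. Every Upf1p-TAP array lay above every mock array for 20 of the 22, against 14.9% of all probe sets. The ratio was above 0 in 87 of 88 comparisons of a member within a pair. These comparisons are not independent, because the members share arrays and sequence, and the matching percentage over all probe sets was not computed. The median member ratio was 2.00, 1.87, 2.25 and 2.12 in pairs 1 to 4, while the median of all probe sets lay between 0.02 and 0.04. The exceptions to the separation of the groups were the probe set of PAU7 and the 1 shared by PAU19, PAU21 and PAU22.

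**Figure D1:**
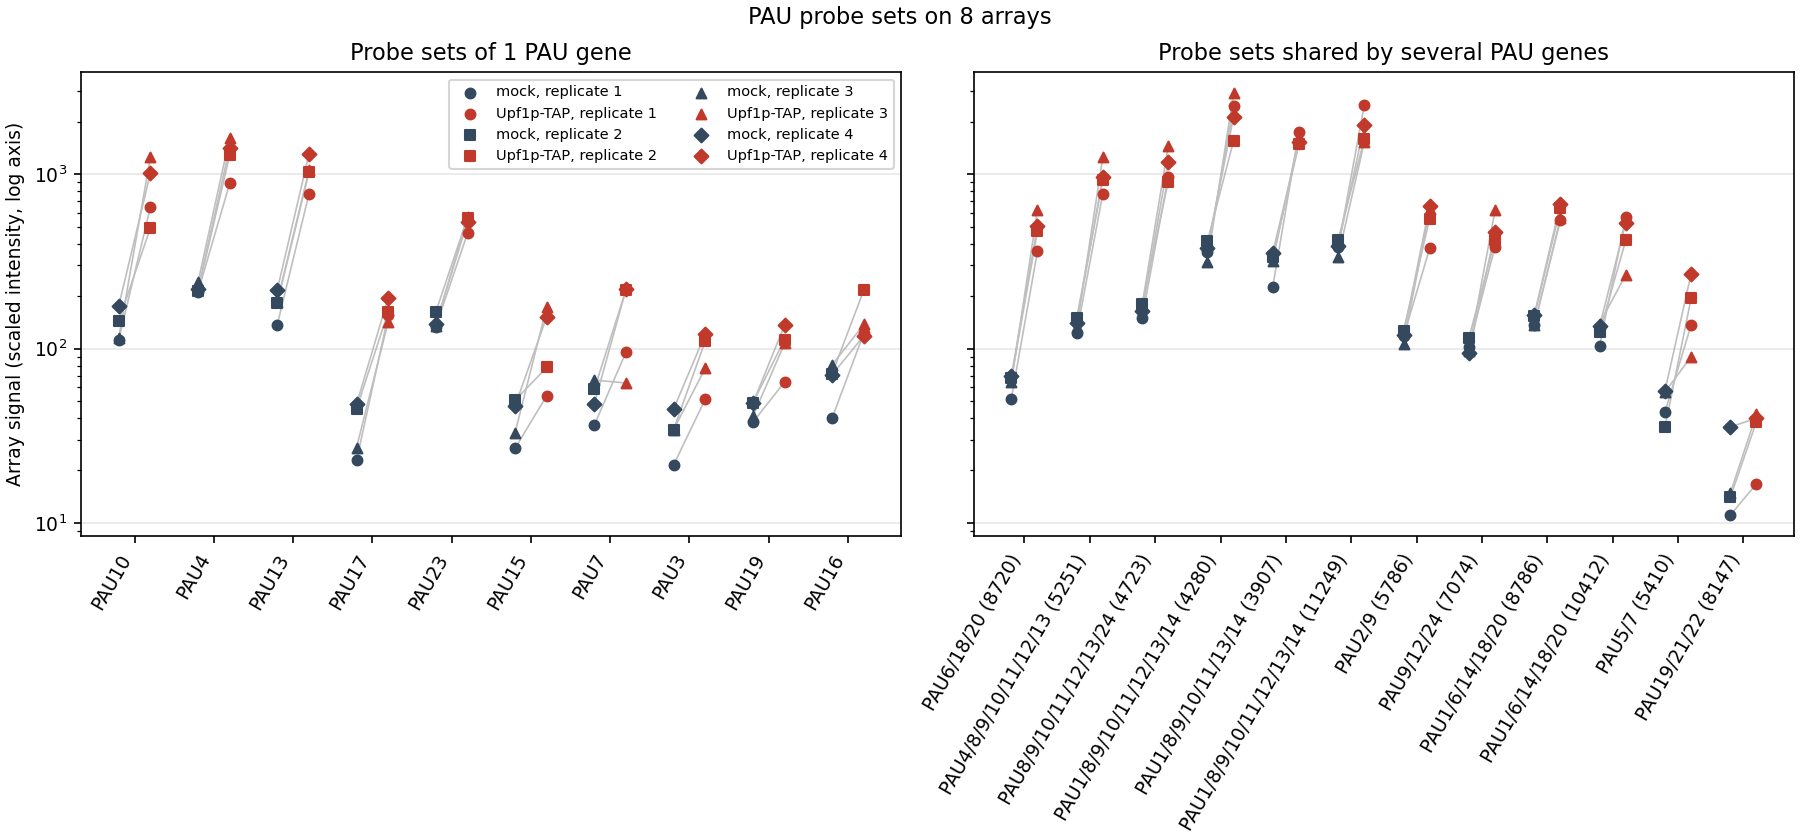
Scaled array signal (log axis) of the 22 PAU probe sets on the 4 mock arrays (dark) and the 4 Upf1p-TAP arrays (red), with grey lines joining arrays of 1 pair and marker shapes giving the replicate number; numbers in brackets are probe-set numbers. The red points lie above all dark points for 20 of the 22, PAU7 and PAU19/21/22 being the exceptions.

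As a check of the arrays, transcripts that any growing yeast culture holds were bright in both groups. ACT1, which encodes actin, had a signal of 6254 ± 1351 with Upf1p-TAP and 6641 ± 1679 in the mock (SD, n = 4). Of the 5 such genes measured, PGK1 (-0.62) and RPL3 (-1.17), a glycolysis and a ribosomal protein gene, were called lower and 0 higher by limma (0 also at an unadjusted p under 0.05). The tagged gene itself, NAM7, which encodes Upf1p, was lower, with 14.1 ± 6.24 against 50.5 ± 20.4 and a log2 ratio of -1.59 (limma adjusted p = 0.00178), and its mean with the tag lay under the 25th percentile of all values (16.0). All 6 nuclear and organelle RNAs examined (SNR3, SNR37, SNR128, COX1, ATP6 and OLI1) were lower (13.5% of all probe sets were), with a median ratio of -2.56. Signals are shares of a scaled array, and what these lower RNAs add to the PAU ratios was not tested.

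PAU10, PAU4 and PAU13 had the highest ratios among the single-gene probe sets. PAU4 (probe set 9865_f_at) gave signals of 887, 1292.0, 1627 and 1424 on Upf1p-TAP arrays 1 to 4 and of 212, 215.0, 240.1 and 219 on the mock arrays. The lowest tagged array stood well above the highest mock array, and the mock values hardly spread. The log2 ratio was 2.51 (SE 0.19, limma adjusted p = 4.78e-05). PAU13 (4563_f_at) gave 771, 1028, 1056 and 1306 against 137, 183, 186 and 217. Its ratio was the steadiest of the 3, between 2.46 and 2.57 in the pairs, with a fitted value of 2.49 (SE 0.17, adjusted p = 3.84e-05). PAU10 (3403_f_at) gave 648, 495, 1259 and 1017 against 113, 144, 115 and 176. Its groups did not overlap either, but its pair ratios ran from 1.75 in pair 2 to 3.41 in pair 3, and the fitted value was 2.54 (SE 0.26, adjusted p = 0.000172).

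PAU17 and PAU23 followed. PAU17 (10361_f_at) had signals of 155, 163, 143 and 196 with Upf1p-TAP and 22.8, 45.2, 27.1 and 48.0 in the mock. Its groups were far apart, with a ratio of 2.13 (SE 0.22, adjusted p = 0.000179). PAU23 (10289_f_at), listed in the gene table also as DAN2, had 459, 565, 571 and 534 against 134, 162, 136 and 139. Both groups were tight, and the ratio was 1.87 (SE 0.18, adjusted p = 0.000137).

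The other 5 single-gene probe sets had ratios between 1.13 and 1.34, with mean signals of 90.3 to 149 on the tagged arrays and 33.8 to 65.9 on the mock arrays. PAU15 (4076_f_at) gave 53.7, 78.0, 174 and 153 against 26.8, 50.7, 32.9 and 47.0 in the mock, with a ratio of 1.34 (SE 0.29, adjusted p = 0.00768). The tagged arrays of replicates 3 and 4 were the high ones, and the lowest tagged array was only a little above the highest mock array. PAU3 (6798_f_at) gave 51.4, 111, 77.4 and 121 against 21.5, 34.3, 34.3 and 45.1, with a ratio of 1.28 (SE 0.21, adjusted p = 0.00205). PAU19 (9290_f_at) gave 64.4, 113, 107 and 137 against 37.8, 49.0, 40.8 and 48.5, with a ratio of 1.14 (SE 0.22, adjusted p = 0.00408). In both genes the tagged array of replicate 1 was the lowest of its group, and so was the mock array of that replicate. PAU16 (10789_f_at) gave 123, 217, 138 and 119 against 40.0, 71.8, 80.9 and 70.9, with a ratio of 1.13 (SE 0.23, adjusted p = 0.00636).

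PAU7 (11287_f_at) was the single-gene member with overlapping groups. Its signals were 95.6, 218, 63.5 and 219 on the tagged arrays and 36.5, 58.5, 66.0 and 48.4 on the mock arrays. In pair 3 the tagged array was slightly below the mock (ratio -0.05), whereas the other pairs gave 1.30, 1.83 and 2.09. The fitted ratio was 1.29 (SE 0.33, limma adjusted p = 0.0169). Without replicate 2 it was 1.11 with adjusted p = 0.0676, and without replicate 4 it was 1.02 with adjusted p = 0.0803, so the call ended in each case. The probe set shared by PAU5 and PAU7 (5410_f_at) was lowest in the same pair, with 137, 194, 89.9 and 269 against 43.3, 35.4, 56.3 and 57.4. Its groups did not overlap, and its ratio of 1.67 (SE 0.29, adjusted p = 0.00264) held under all 11 alternatives.

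**Figure D2:**
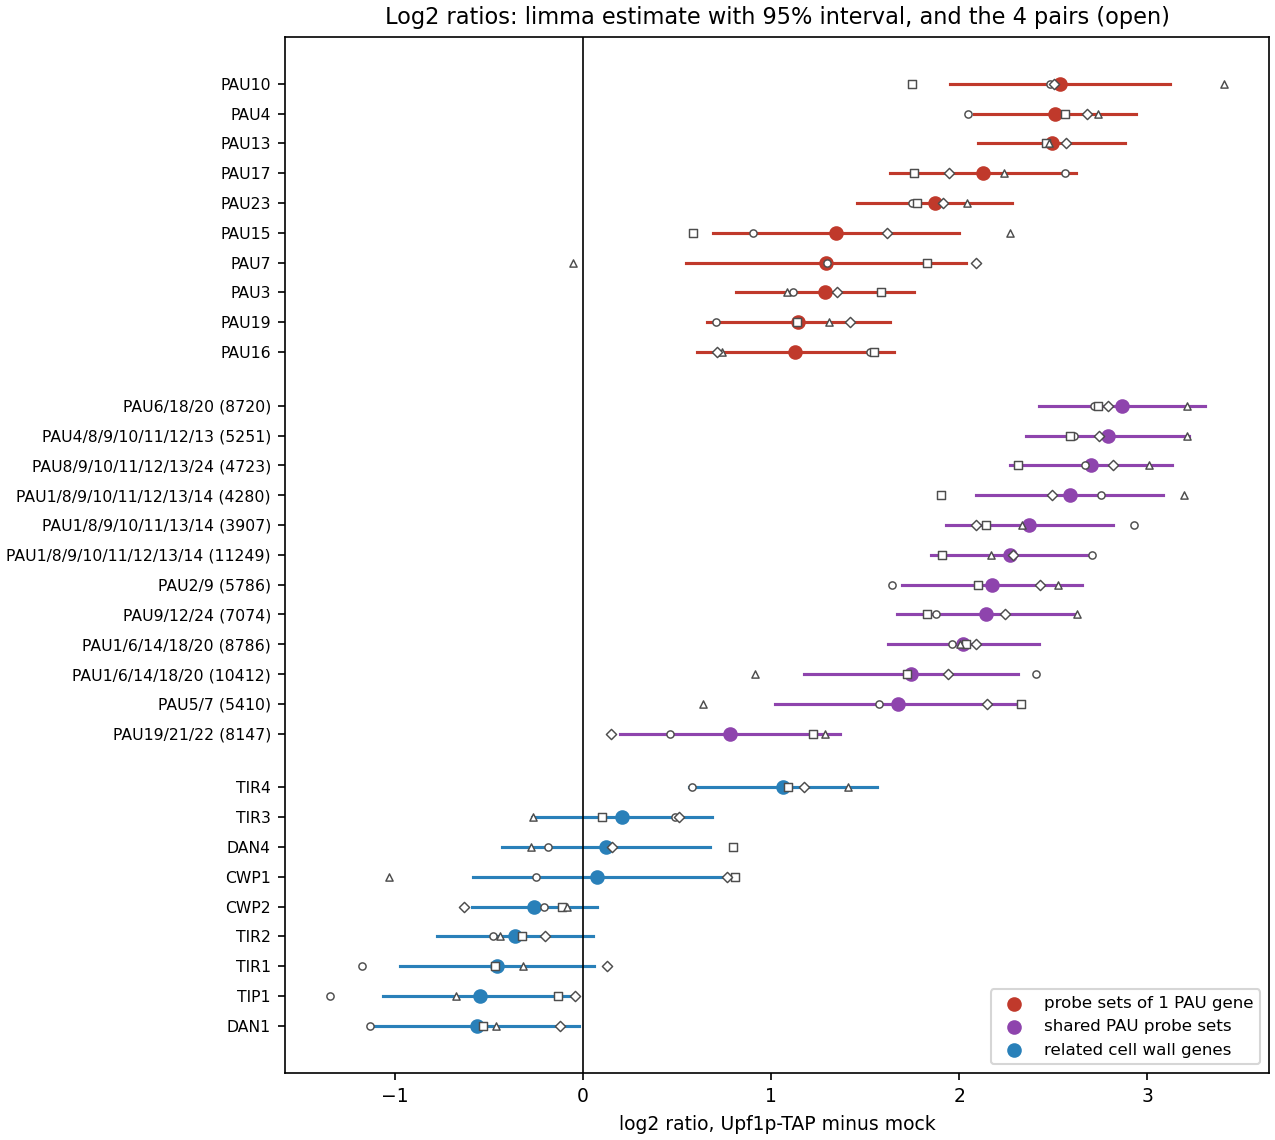
Log2 ratio (Upf1p-TAP minus mock) of each PAU probe set and of 9 related cell wall genes, as the limma estimate (filled) with its 95% interval (line) and the 4 pair ratios (open, shaped by replicate number as circle, square, triangle and diamond for 1 to 4). The intervals of the 22 PAU probe sets lie above 0, and among the related genes TIR4 alone has an interval above 0. Those of TIP1 and DAN1 lie below 0, although neither gene was called.

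Among the shared probe sets the highest ratio belonged to the set of PAU6, PAU18 and PAU20 (8720_f_at). It gave 363, 474, 625 and 506 with Upf1p-TAP against 51.6, 67.5, 64.0 and 69.6 in the mock, a ratio of 2.86 (SE 0.20, limma adjusted p = 3.77e-05). The set of PAU4, PAU8, PAU9, PAU10, PAU11, PAU12 and PAU13 (5251_f_at) gave 776, 923, 1260.0 and 968 against 124, 149.9, 132 and 141, a ratio of 2.79 (SE 0.19, adjusted p = 3.84e-05). The set of PAU8 to PAU13 with PAU24 (4723_f_at), PAU24 being listed also as DAN3, had a ratio of 2.70 (SE 0.19). All 3 had their highest pair ratio in pair 3. PAU2, which has no probe set of its own, was read together with PAU9 (5786_f_at), and that set gave 376, 557, 633 and 660 against 118, 127, 107 and 119, a ratio of 2.17 (SE 0.21, adjusted p = 0.000136). The set of PAU9, PAU12 and PAU24 (7074_f_at) was close to it at 2.14.

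Probe sets that named the same genes gave near but not identical fitted ratios, and differed more in some pairs. PAU1, PAU6, PAU14, PAU18 and PAU20 stood on both 8786_f_at, with a ratio of 2.02, and 10412_f_at, with a ratio of 1.75. On 8786_f_at the pair ratios kept between 1.96 and 2.09, while on 10412_f_at they ran from 0.91 in pair 3 to 2.41 in pair 1. The mean difference was 0.28 ± 0.63 (SD, n = 4 pairs), with p = 0.5 in an exact two-sided sign-flip test. PAU1 and PAU8 to PAU14 stood on both 4280_f_at, with 2.59, and 11249_f_at, with 2.27, and the difference of 0.32 ± 0.48 gave an exact p = 0.25. Both p-values were 0.5 after adjustment over the 2 comparisons. As 0.125 is the smallest p that 4 pairs allow, the test could not decide whether the ratios differ. The third set of that kind, 3907_f_at, which lacks PAU12, had a ratio of 2.37.

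The set shared by PAU19, PAU21 and PAU22 (8147_s_at) had the lowest ratio and was the dimmest. It gave 16.8, 38.2, 42.1 and 39.9 with Upf1p-TAP against 11.1, 14.0, 14.8 and 35.6 in the mock. The tagged array of replicate 1 lay within the mock range, and the mock array of replicate 4 lay near the tagged ones. The ratio was 0.78 (SE 0.26, limma adjusted p = 0.0472), above 0 in 4 of 4 pairs. The call ended without replicate 1 (adjusted p = 0.0686), 2 (0.178) or 3 (0.147), and under 4 other settings. These were no offset (adjusted p = 0.0555), no pair block (0.122), quantile normalization (0.0831) and median centring (0.100). PAU21 and PAU22 have no other probe set, so for these genes no call held under all alternatives.

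**Figure D3:**
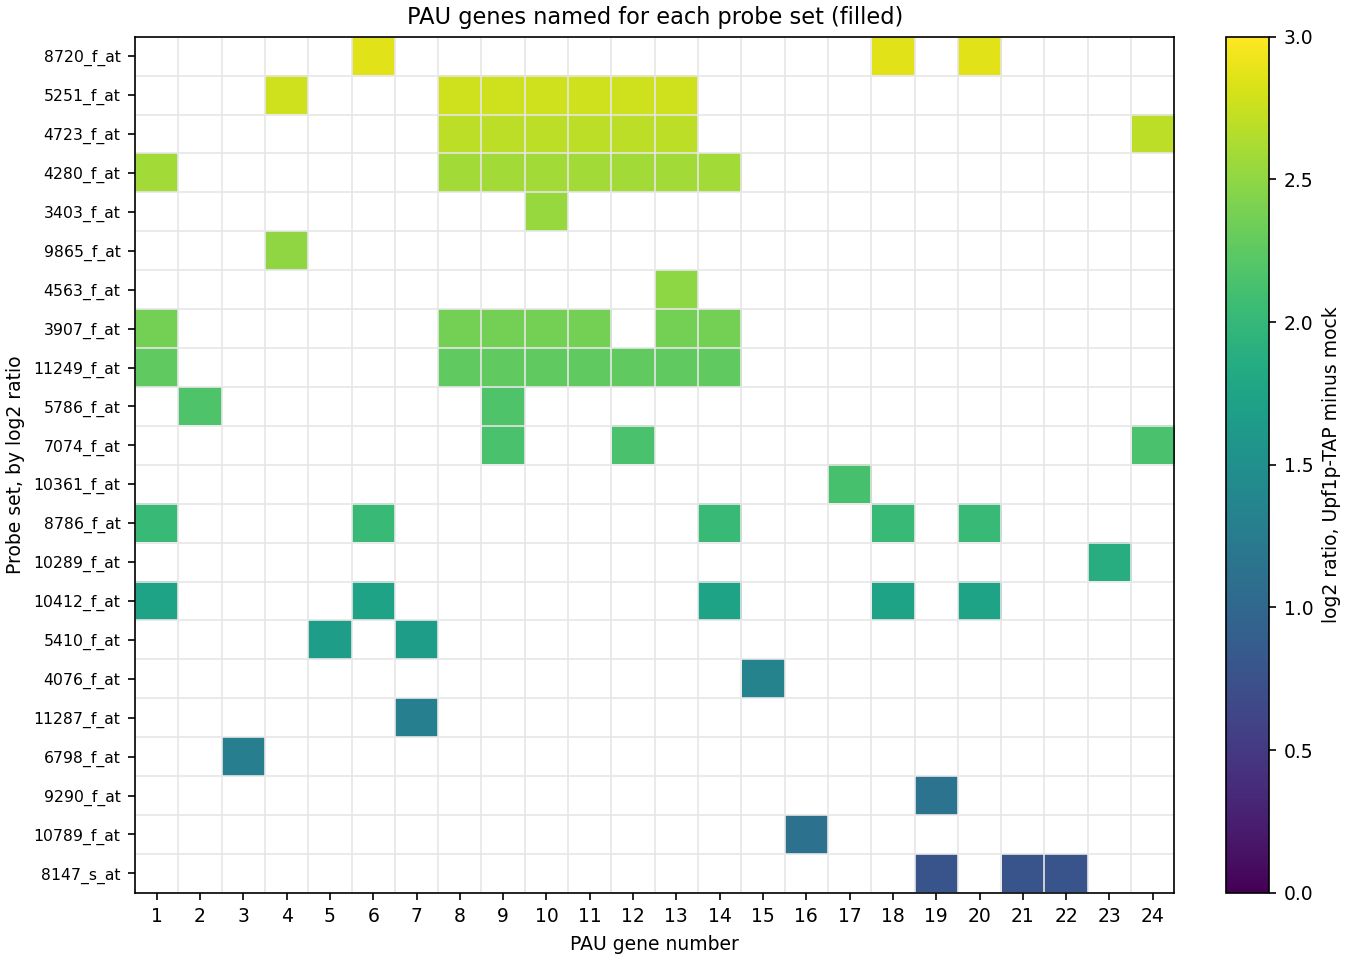
The 24 PAU genes (columns, by gene number) named for each of the 22 probe sets (rows, highest log2 ratio at the top), with filled cells coloured by the log2 ratio of the probe set. PAU8 to PAU11 and PAU13 recur together on 5 sets with ratios of 2.27 to 2.79, and the sets naming PAU3, PAU7 alone, PAU15, PAU16 or PAU19 fill the bottom rows.

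The ratios are given next by gene length, a grouping made after the values were seen and not tested. The coding length in the gene table is 363 bases for PAU10, PAU4 and PAU13, and their ratios lay between 2.49 and 2.54. The 3 shared sets made up of 363-base genes alone spread more widely, with 1.75 (10412_f_at), 2.02 (8786_f_at) and 2.86 (8720_f_at). All 3 name PAU6, PAU18 and PAU20, so they read overlapping genes and are not separate members of the class. The length is 372 or 375 bases for PAU3, PAU15, PAU16, PAU17, PAU19 and PAU23, whose ratios lay between 1.13 and 2.13, so the 6 sets of each class overlapped. Among the single-gene sets, the lowest ratio of the shorter genes (2.48 and 2.50) was above the highest of the longer ones (2.27 and 1.94) in pairs 3 and 4, and the classes overlapped in pairs 1 and 2 (2.04 against 2.56, and 1.75 against 1.77). Mean mock signals were 63.2 to 221 over the 6 sets of shorter genes and 33.8 to 143 over the 6 of longer genes, ranges that overlapped, and the part of signal in the ratios was not tested.

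Across the 22 probe sets the ratio was correlated with log2 mock signal (Pearson r = 0.71, and 0.75 over the 10 single-gene sets), as a description over probe sets that share arrays and sequence. The offset shrinks ratios of dim probe sets, and r was 0.68 and 0.71 without it. Single-gene sets of like mock signal were compared in 2 cases, chosen after the values were seen. With 4 pairs the sign-flip test used cannot give a p below 0.05, so it could not decide these comparisons. PAU17 (mock mean 35.8) minus PAU3 (33.8) was 0.84 ± 0.57 on the log2 ratio (SD, n = 4), higher in 4 of 4 pairs, with an exact two-sided sign-flip p = 0.125, the smallest possible with 4 pairs. PAU10 (137) minus PAU23 (143) was 0.67 ± 0.57 (SD, n = 4), higher in 3 of 4 pairs, with an exact p = 0.25. These 2 cases do not stand for all sets of near signal. PAU15 (mock mean 39.3) and PAU3 (33.8) had close ratios of 1.34 and 1.28.

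**Figure D4:**
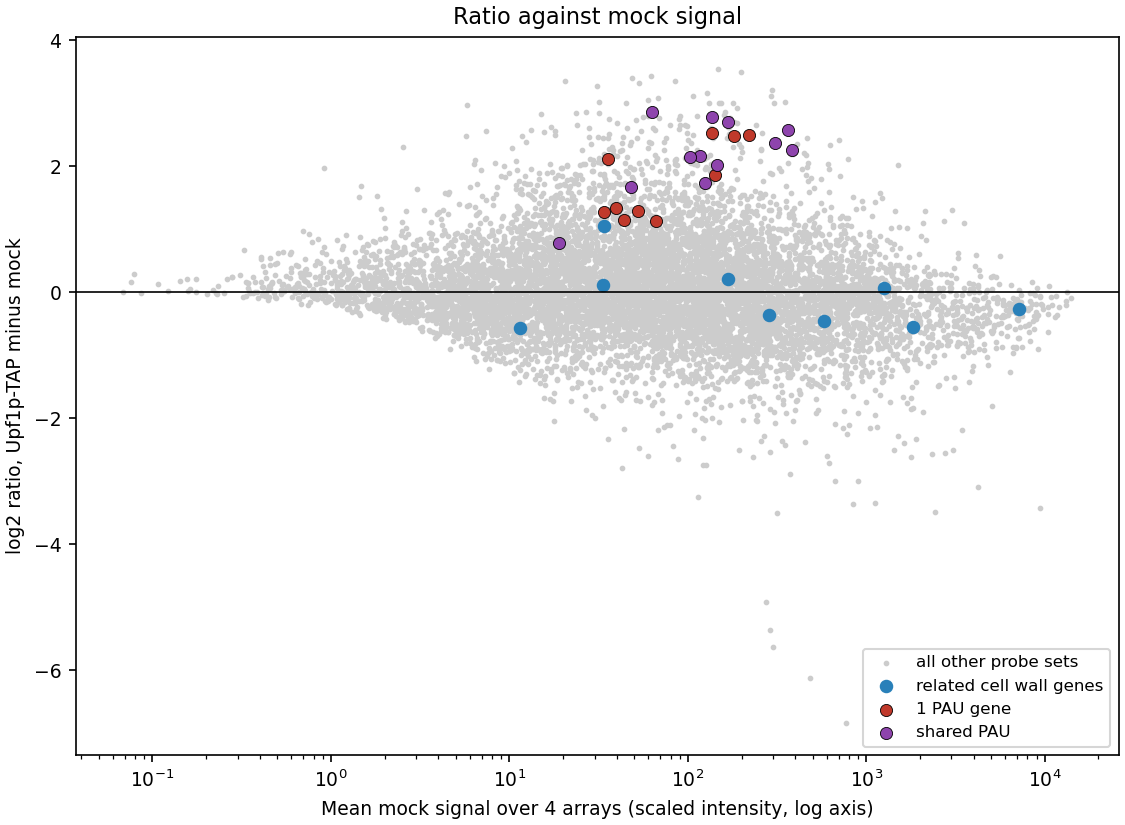
Log2 ratio (Upf1p-TAP minus mock) against the mean mock signal over 4 arrays (log axis) for all tested probe sets (grey), the PAU sets of 1 gene (red), the shared PAU sets (purple) and 9 related cell wall genes (blue). The PAU sets lie at mock signals of 18.9 to 382 and ratios of 0.78 to 2.86, and 8 of the 9 related genes lie at ratios of 0.21 or lower.

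Most cell wall relatives of the PAU genes were not called. Of 9 measured genes of the Srp1/Tip1 family, 1 was higher (11.1%, against 17.7% of all probe sets) and 0 lower by limma (2 at an unadjusted p under 0.05), and the median ratio was -0.26. TIR4, a cell wall mannoprotein gene used under low oxygen, was the higher one, with 77.4 ± 21.9 against 34.1 ± 3.46 (SD, n = 4) and a log2 ratio of 1.06 (SE 0.22, limma adjusted p = 0.00682). TIR1 (-0.46, adjusted p = 0.160), TIR2 (-0.36, adjusted p = 0.167) and TIR3 (0.21, adjusted p = 0.500) did not pass. DAN1, an anaerobic cell wall mannoprotein gene, had 6.68 ± 3.02 against 11.4 ± 2.36 and a ratio of -0.56 (adjusted p = 0.107), at a level under 16.0, the 25th percentile of the tested signals, in both groups. DAN4 had 37.8 ± 13.1 against 33.4 ± 5.33, a ratio of 0.12 (95% interval -0.43 to 0.67, adjusted p = 0.747). CWP1, CWP2 and TIP1, genes of abundant cell wall proteins, did not pass either, although median centring made TIP1 (-0.55) pass as lower (-0.69, adjusted p = 0.0354). The probe sets of these relatives do not carry the _f_at suffix, and the difference between their ratios and those of the PAU genes was not tested.

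Of 10 regulators of anaerobic genes, 3 were higher (30%, against 17.7% of all probe sets) and 2 lower (13.5% of all probe sets were). TUP1 (log2 ratio 0.89), a corepressor, SUT1 (0.87), a sterol uptake regulator, and MOT3 (0.70), a repressor of hypoxic genes, were higher, and MGA2 (-0.85) and SPT23 (-0.84), activators of the fatty acid desaturase gene OLE1, were lower. None of these calls lasted when single pairs were left out. They ended without replicate 1, 2 or 4 for TUP1, MOT3 and MGA2, without replicate 3 or 4 for SUT1 and without any 1 of the 4 for SPT23, with a highest adjusted p of 0.147 (MOT3) over all alternatives. Those of TUP1, SUT1 and MOT3 ended without the pair block too. Median centring and quantile normalization ended the calls of SUT1 and MOT3, and leaving out the offset ended that of MOT3. UPC2 and ROX1 did not pass.

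Other genes used under low oxygen gave 3 of 12 higher (25%, against 17.7% of all probe sets) and 4 lower (13.5% of all probe sets were). Their median ratio was -0.30. FET4 (1.23), a low-affinity iron transporter gene, and the sterol importer genes AUS1 (1.09) and PDR11 (1.08) were higher. HEM13 (-0.99), a haem synthesis gene, ANB1 (-0.96), which encodes the hypoxic form of translation factor eIF5A, the sterol synthesis gene HMG2 (-0.89) and the cytochrome c isoform gene CYC7 (-0.84) were lower. The calls of FET4 and AUS1 held under all 11 alternatives, and the other calls ended in some. PDR11 lost its call without replicate 4 or without the pair block, HEM13 without replicate 2 or 3, ANB1 without replicate 1, 2 or 3, and CYC7 and HMG2 without replicate 1, 3 or 4. ANB1 lost its call without the pair block too, and HMG2 without the block and without the intensity trend. The highest adjusted p over all alternatives was 0.0761 for PDR11, 0.0631 for HEM13, 0.0675 for ANB1, 0.121 for CYC7 and 0.114 for HMG2.

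Position was described by the order of genes in the gene table. Of the 24 PAU genes, 19 lay among the 7 outermost genes of a chromosome end, and PAU2, PAU5, PAU7, PAU17 and PAU23 lay further in. Of the single-gene sets, the inner genes PAU17, PAU23 and PAU7 had ratios of 2.13, 1.87 and 1.29, and the end-lying genes had ratios on both sides of these, from 1.13 (PAU16) to 2.54 (PAU10). Among 325 measured genes outside the family that are within the 15 outermost at an end, 89 were higher (27.4%) and 38 lower, with a median ratio of 0.18. Their ratios ran from -2.74 to 3.54, which was also the highest ratio of all probe sets tested. ISC10 (3.54), SDL1 (3.36) and YER187W (3.06) among them lay above the highest PAU ratio of 2.86. For comparison, 20.1% of 5486 protein-coding genes were higher, with a median of 0.05, and 13.5% of all probe sets were lower. Other subtelomeric families (such as COS, FLO, AAD and MAL) had 52 listed genes, of which 21 had a probe set of that gene alone. Genes read only on shared probe sets were left out. Of the 21, 5 were higher (23.8%, against 20.1% of protein-coding genes) and 1 lower, with a median of 0.42.

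The nearest protein-coding genes outside the family were measured for 18 of the 24 PAU genes, 25 genes in all. Of these, 7 were higher (28%, against 20.1% of protein-coding genes and 27.4% of the outermost genes), 2 lower (13.5% of all probe sets were) and 16 not called. PAU17 stands between HSP104 and SSA2, which encode heat shock chaperones, and both fell: HSP104 had a ratio of -1.70 (limma adjusted p = 0.00107) and SSA2 of -0.89 (adjusted p = 0.00250), in 4 of 4 pairs each. The genes on either side of PAU23, YLR036C and COX12, did not pass. Higher neighbours were YOL162W beside PAU20 (2.57), YCR102C beside PAU3 (1.93), AYT1 beside PAU18 (1.88), YIR042C beside PAU15 (1.81), YLR460C beside PAU4 (1.77), DFP1 beside PAU7 (1.20) and YDR541C beside PAU10 (0.88). The call of YDR541C ended without replicate 3 or 4, without the pair block and after quantile normalization (highest adjusted p = 0.141). The ratio of the neighbour was above that of the PAU gene's own probe set for PAU3 and PAU15. For PAU18 and PAU20, read on shared sets alone, it was above the lowest set naming the gene (1.75) and below the highest (2.86). That made 4 PAU genes with a neighbour above their lowest ratio, and for 14 every measured neighbour lay below it.

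Other probe sets with the suffix _f_at, were described for comparison, a step added after the data were seen. Of 565 such sets outside the family, 51 were higher (9.03%) and 74 lower (13.1%), and their median ratio was 0.00. Their ratios ran from -1.90 to 1.90. Of the 22 PAU sets, 13 lay above that range, those of PAU4, PAU10, PAU13 and PAU17 among them. The matching share over all probe sets was not computed. The comparison was not matched for signal. The median mock signal was 306 in the other _f_at sets, and 59.1 and 131 in the single-gene and shared PAU sets.

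Within the tagged group the members did not follow a single array. The Upf1p-TAP array of replicate 1 held the lowest signal for 12 of the 22 members, and that of replicate 3 the highest for 10 and the lowest for 5. In the mock group the array of replicate 1 held the lowest signal for 16 members. The matching shares over all probe sets were not computed, so these counts may not be particular to the PAU sets. The ratio was highest in pair 3 for 11 members, PAU10, PAU4 and PAU15 among them, and lowest in pair 3 for 4 others. The median member signal ran from 422 to 596 on the tagged arrays and from 108 to 127 on the mock arrays.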

How the data were processed

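RNA from 8 selections, 4 with Upf1p-TAP and 4 mock, was measured on single-colour arrays. The authors deposited 1 table of intensity values on a linear scale (9335 probe sets), made with GCOS, the array maker's software, per the submitters' processing notes, which give no version or setting. The deposited values had been scaled: with 2% trimmed at each end, the arrays had means of 250.2 to 250.3. Median signals ran from 58.7 to 77.9. Neither scanner files nor detection calls were used here. Precision is limited by the number of arrays. The 60 control probe sets were not tested.

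The test was run on log2(intensity + 4.09) of all 9275 other probe sets with limma 3.58.1 in R 4.3.3, with the pair as a block and an intensity trend in eBayes. It was tested on simulated data, where recovery was low for changes of 1 on this log2 scale. A gene that did not pass may therefore still differ between the selections. Fold changes on this scale understate those of dim transcripts. Independent pairs are named in the series' design text, and deviations from the group means over the 4637 brighter probe sets correlated between arrays of the same number with r = 0.18 to 0.55, and between other combinations with r = -0.54 to 0.35. Separate cultures are not stated in the labels, so p-values reflect the spread among these 8 selections, which may be technical. Genes came from a platform annotation table, with symbols updated through RefSeq, and for other genes 1 probe set of that gene alone was used (a plain _at name first, then the brightest). Every PAU probe set and NAM7 were named in any case, and members of the comparison lists (cell wall relatives, regulators, low-oxygen genes, subtelomeric genes) mainly where they passed. The members and lists were chosen with earlier results of these data known. Alternatives were no pair block, no offset, an offset at the 25th percentile, quantile normalization, median centring, a filter on dim probe sets, no intensity trend, and leaving out each pair.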

Additional observations from a re-analysis of the deposited data

Results flagged for a closer look

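Among 66 sets of 4 values (tagged signal, mock signal and pair ratio of each PAU probe set, on the log2 scale), 3 held a value that lay far from the other 3, measured as the gap to its nearest neighbour over the whole range. Chance flags about 1 in 20 such sets. For PAU13 (4563_f_at) the pair ratio of replicate 4 was the highest, with a gap of 0.831, although all 4 ratios lay between 2.46 and 2.57. For the set of PAU6, PAU18 and PAU20 (8720_f_at) the ratio of pair 3 was the highest (3.21, gap 0.854). For the set of PAU19, PAU21 and PAU22 (8147_s_at) the tagged array of replicate 1 was the lowest (16.8, gap 0.887), and without that pair its ratio was 0.89 with limma adjusted p = 0.0686.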

How the results depend on the processing

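All 10 single-gene PAU probe sets remained called higher by limma under the 11 alternatives, except that PAU7 lost its call without replicate 2 or 4, leaving 9. The shared sets kept 12 or 11 calls, the set of PAU19, PAU21 and PAU22 being the 1 lost. No PAU set changed direction. The median of the single-gene sets ran from 1.46 to 1.77 and that of the shared sets from 2.08 to 2.32. Without the replicate block, 10 single-gene and 11 shared sets were called, the set of PAU19, PAU21 and PAU22 having 0.78 with adjusted p = 0.122, and 1340 probe sets were higher and 931 lower over the whole array. Dropping the block ended the calls of TUP1, SUT1, MOT3, PDR11, ANB1, HMG2 and YDR541C too. Leaving out 1 pair gave between 1076 and 1384 higher and between 775 and 953 lower probe sets, the lowest counts without replicate 4, and the cause was not tested. After median centring 1 cell wall relative was lower, TIP1. CWP1 (0.07) turned to -0.0695 after median centring and ran from -0.17 (without replicate 2) to 0.44 (without replicate 3) when 1 pair was left out. DAN4 (0.12) turned to -0.0213 after median centring and -0.0123 after quantile normalization, and ran from -0.10 (without replicate 2) to 0.25 (without replicate 3). Neither gene was called in any of these, and the cause was not tested. The set shared by PAU19, PAU21 and PAU22 was the dimmest member (mock mean 18.9), and the part of low signal in its lost calls was not tested. Family probes may not tell near-identical genes apart.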
